A study of Mus musculus with 24 samples.

Results

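Meis1, Pbx3, Mecom, Mef2c, Zeb2, Runx2, Jmjd1c and Tcf4 are genes outside the HOX clusters that are known targets of MLL fusion proteins, and their RNA was followed here through 6 groups of sorted mouse blood progenitors. They were taken from the gene count table by their symbols and make up 8 of its 55487 distinct Ensembl genes. Each of the 8 passed the filter on low counts, together with 23059 genes in all. The cells carry the label LSK, meaning lineage-negative cells with Sca-1 and KIT on their surface, the fraction that holds blood stem cells and multipotent progenitors. The design text instead names lineage-negative KIT-positive progenitors. Every group had 4 libraries, called biological replicates in the design text.

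MLL::ENL, shortened to ME, joins the histone methyltransferase MLL to ENL, a protein of transcription elongation complexes. The mice carried a human ME transgene under Tet-off control, a system in which the transgene is transcribed while no tetracycline-type drug is given. Its driver, the strain and the sex of the mice are not given in the sources used here. Liver was sampled at birth, called P0 for postnatal day 0, from wild-type animals (P0 WT) and from animals with ME switched on at stage E10.5 of embryonic life (P0 ME). Marrow was sampled at postnatal day 28 (P28) from wild-type animals (P28 WT), from animals with the E10.5 induction (E10.5-induced ME) and from animals with induction at birth (P0-induced ME). A last P28 group with induction at E10.5 is labelled RLT Vav Txp, a term the labels do not expand. Its labels carry tags in place of replicate numbers, and its libraries are numbered 1 to 4 here in name only. The tags of libraries 1 and 2 begin with the same number, and the labels do not say what it stands for. Liver was taken only at P0 and marrow only at P28, so that age and tissue cannot be told apart.

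MLL fusion proteins reach their target genes through the part kept from MLL, together with menin (Men1) and LEDGF (Psip1), and the ENL part brings in elongation factors and the methyltransferase DOT1L. Beside HOXA genes, they keep on a set of regulators of stem and progenitor cells that normal blood cells turn down as they mature. MEIS1 and PBX3 are homeodomain proteins that bind DNA with HOXA9, Mecom codes for the stem cell zinc finger factor EVI1, and MEF2C, ZEB2, RUNX2 and TCF4 are lineage regulators, while JMJD1C is a coactivator of the KDM3 demethylase family.

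Promoters are shown for the genes whose RNA passed the test in a comparison of ME with wild type of the same age and for which the RefSeq table had an entry (Mecom, Mef2c and Runx2). Pbx3 and Tcf4 had none, and the other 6 genes had 13 windows of 300 bases (250 before and 50 after a start). The stretches below are the 250 bases before the start, 5′ to 3′, from the build GRCm38.p6, each from the strand named. Capitals mark matches, on either strand, to one of 7 short motifs: TGACAG for MEIS, TGATTTA for HOX with PBX, TGTGGT for RUNX, GACAAGA for EVI1, TATTTAT for MEF2, CACCTG for ZEB and CAGCTG for TCF4 and its relatives.
Mecom, upstream start, chr3:30509760-30510009, minus strand: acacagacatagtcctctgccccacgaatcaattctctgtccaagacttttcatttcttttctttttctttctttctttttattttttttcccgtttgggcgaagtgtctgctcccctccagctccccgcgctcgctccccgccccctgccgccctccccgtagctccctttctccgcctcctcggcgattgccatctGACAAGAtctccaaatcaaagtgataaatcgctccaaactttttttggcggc
Mecom, downstream start, chr3:30013205-30013454, minus strand: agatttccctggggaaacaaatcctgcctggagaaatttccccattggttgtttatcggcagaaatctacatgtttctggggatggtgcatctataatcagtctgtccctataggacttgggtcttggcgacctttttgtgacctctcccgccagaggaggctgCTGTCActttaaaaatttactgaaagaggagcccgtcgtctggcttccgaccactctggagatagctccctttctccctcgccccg
Mef2c, first of 3 starts, chr13:83503784-83504033, plus strand: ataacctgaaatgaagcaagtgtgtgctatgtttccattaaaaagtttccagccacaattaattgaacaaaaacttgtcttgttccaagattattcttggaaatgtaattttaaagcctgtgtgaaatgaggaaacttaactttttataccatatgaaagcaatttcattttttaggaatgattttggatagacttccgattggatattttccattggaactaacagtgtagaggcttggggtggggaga
Runx2, chr17:44814628-44814877, minus strand: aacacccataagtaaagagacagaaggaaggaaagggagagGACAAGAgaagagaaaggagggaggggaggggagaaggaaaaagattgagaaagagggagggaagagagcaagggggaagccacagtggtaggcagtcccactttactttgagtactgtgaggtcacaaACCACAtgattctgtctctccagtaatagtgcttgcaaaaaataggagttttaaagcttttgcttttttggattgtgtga

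The upstream Mecom window held a forward match to the EVI1 motif, and the downstream one a match to the MEIS motif on the opposite strand. Those Mecom starts lie 496555 bases apart, and the counts per gene do not separate their transcripts. The Runx2 stretch held a forward match to the EVI1 motif and a match to the RUNX motif on the opposite strand, and 2 further RUNX matches on that strand lay in the 50 bases after the start. No motif was found in the Mef2c stretch. The EVI1 motif occurred in 5 of the 13 windows and in 3.95% of 32851 promoter windows of that length. These 5 belong only to Mecom, Zeb2 and Runx2, and 2 of them overlap at Zeb2 and hold the same site. They are thus not independent, and no test of enrichment was made. The MEIS motif was in 2 of the 13 and 19.2% of all, the RUNX motif in 2 and 16.8%, and the ZEB motif in 1 and 20.2%. The HOX with PBX, MEF2 and TCF4 motifs were in none of the 13, against 2.97%, 5.6% and 16.3% of all windows. These matches describe letters only and show no binding.

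Library totals ran from 31233688 to 89774511 counts, so that 1 CPM (a gene's count scaled to a fixed library total) stood for 31.2 reads or more before scaling. Levels below are CPM after TMM scaling (factors that align libraries for composition). The LSK marker genes were read in every group, with summed levels of 2235 to 4731 CPM among P0 WT and 2239 to 5008 among P0 ME libraries, 4343 to 5364 in the wild-type and both main ME groups at P28 and 2100 to 3068 in RLT Vav Txp. Library 1 of each P0 group stood apart from libraries 2 to 4. Its neutrophil marker sum was 882 CPM (P0 WT) and 802 CPM (P0 ME), and the others had 10880 to 18140 and 18440 to 36100 CPM. Erythroid sums were 649.7 and 331 CPM in these first libraries, against 10710 to 14410 and 4647 to 11540. Its LSK sums were the highest of their groups, at 4731 CPM against 2235 to 3259 and at 5008 against 2239 to 3389. In P0 WT its mast cell and basophil sum was 4132 CPM, against 551 to 1023. P28 WT had LSK sums of 4343 to 4935 CPM, neutrophil sums of 714 to 949 and erythroid sums of 439 to 566. These lay nearer to library 1 of P0 WT than to its libraries 2 to 4. The mast cell and basophil sums of P28 WT, at 151 to 201 CPM, lay nearer to libraries 2 to 4. In RLT Vav Txp the macrophage marker sum was 737 to 3169 CPM, against 80.7 to 119 in P28 WT. Of the 10 macrophage markers 9 were called higher there and none was at 0. Neutrophil sums in RLT Vav Txp were 2119 to 6967 CPM against 714 to 949, erythroid sums 1015 to 1956 against 439 to 566 and megakaryocyte sums 195 to 370 against 47.3 to 61.5. Called higher there were 0 of 8 neutrophil, 2 of 8 erythroid and 2 of 4 tested megakaryocyte markers, against 2.64% of all genes. Group means ran from 688 ± 72.1 CPM (P28 WT) to 1065 ± 149.5 (E10.5-induced ME) for Kit and from 93.8 ± 22.5 CPM (P0 ME) to 296 ± 30.5 (P28 WT) for Ly6a, which codes for Sca-1. The part of these differences in the results below was not tested. In bulk RNA fewer cells of a type and less RNA per cell cannot be told apart.

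**Figure D1:**
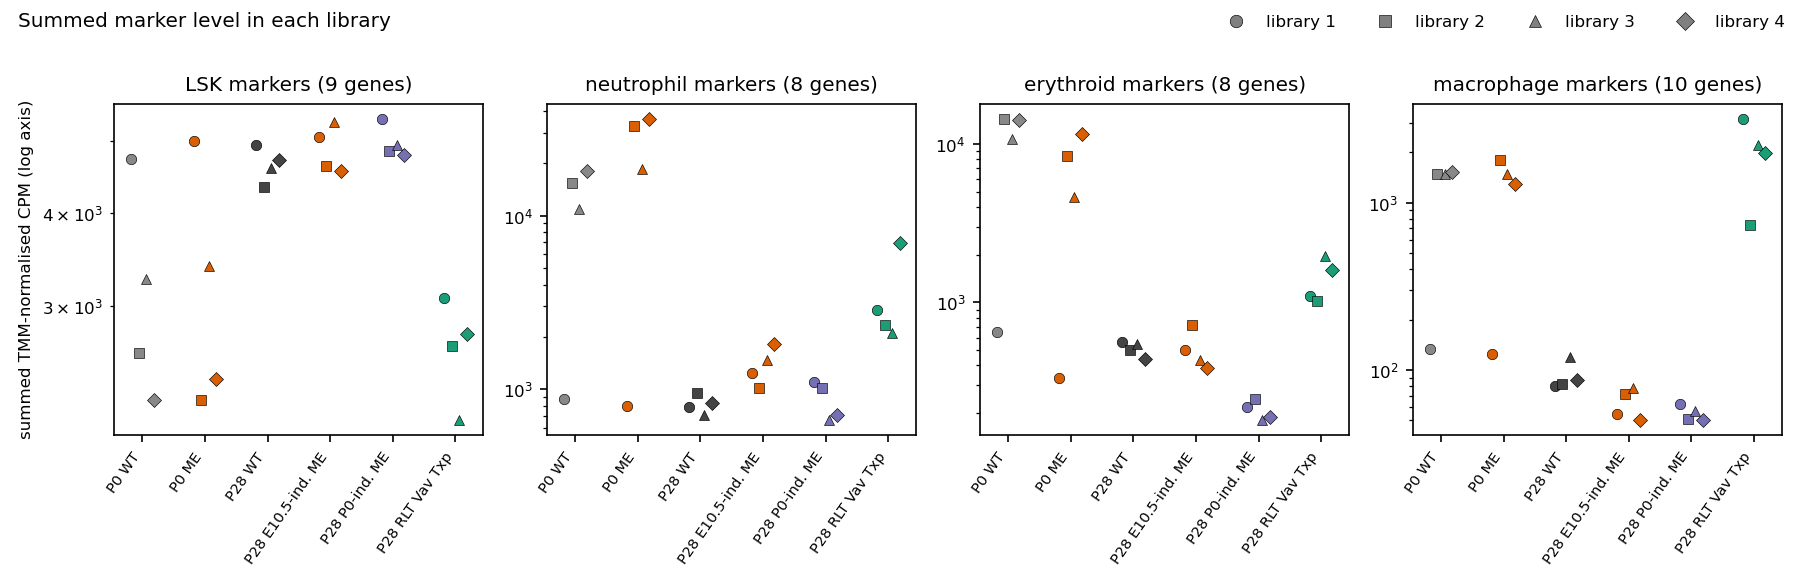
Summed TMM-normalised CPM (log axis) of markers of LSK cells, neutrophils, erythroid cells and macrophages in each of the 24 libraries, with 1 symbol per library. Library 1 of P0 WT and of P0 ME lies far below the other P0 libraries for neutrophil, erythroid and macrophage markers, and the RLT Vav Txp libraries reach 737 to 3169 CPM for macrophage markers.

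Compared per length (RPKM, CPM per kilobase of exon), Meis1, Mef2c and Mecom were the 3 highest of the 8 genes in all 6 groups. In P28 WT Meis1 stood at 31.3 ± 2.07 RPKM, Mef2c at 19.8 ± 2.04 and Mecom at 8.47 ± 1.01 (SD, n = 4). Pbx3 was the lowest in 5 groups, at 1.58 ± 0.271 RPKM in P28 WT. In RLT Vav Txp it stood at 4.07 ± 1.61 RPKM, above Jmjd1c at 3.18 ± 0.625, with spreads that overlap. Within P28 WT the levels of Runx2 (7.90 ± 0.496 RPKM), Tcf4 (5.24 ± 0.647), Jmjd1c (3.82 ± 0.615) and Zeb2 (2.32 ± 0.150) lay between these. Mecom and Runx2 were within their spread of each other there.

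**Figure D2:**
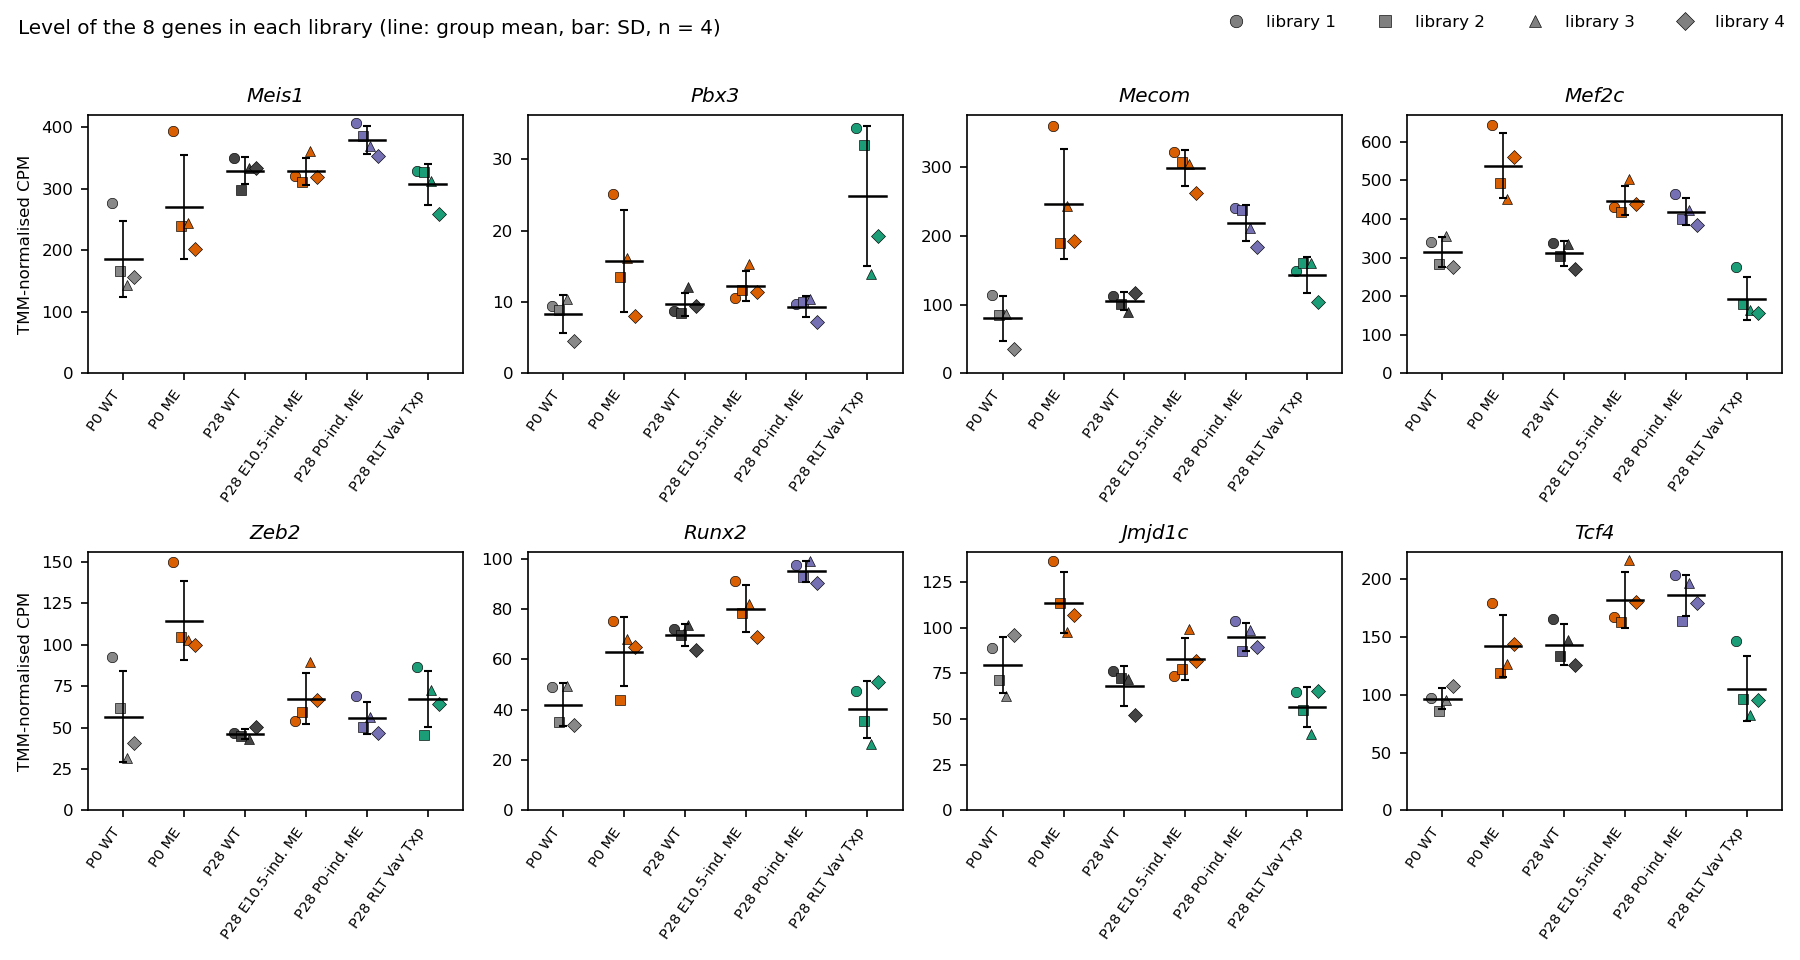
TMM-normalised CPM of the 8 genes in each library (symbols), by group, with the mean (line) and SD (bar, n = 4); each panel has its own linear axis from 0. Mecom in the 3 ME groups without the RLT Vav Txp label reads 185 to 361 CPM, and in both wild-type groups 35.9 to 118 CPM.

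Newborn ME cells held more Mecom and more Mef2c RNA than newborn wild-type cells. The test was the quasi-likelihood test of edgeR over all genes, and a gene was called at an adjusted p under 0.05. It called 2 of the 8 genes higher and none lower, where 0.364% of all tested genes were called higher, 0.278% lower and 0.642% in either direction. The 8 estimates were all positive, with a median log2 fold change of 0.68 against -0.01 for all genes, and kept that sign in every alternative run. For 5 of the 8 genes (Mecom, Mef2c, Zeb2, Jmjd1c and Tcf4) the libraries of both groups did not overlap, which held for 3.74% of all genes. In these P0 ME libraries library 1 was the highest of 4 for each of the 8 genes, and in P0 WT for Meis1, Mecom and Zeb2. Without both P0 libraries numbered 1, 3 genes were called (Meis1, Mecom and Zeb2). In a fit of the P0 groups alone 0 of the 8 were called and 5 genes in all.

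At P28 the 3 ME groups were each set against the same P28 WT libraries, so these comparisons share their controls. E10.5-induced ME had 2 genes called higher (Mecom and Mef2c) and none lower, with 7.82% of all genes called higher, 4.44% lower and 12.3% in either direction. Groups did not overlap for 3 of the 8 (Mecom, Mef2c and Zeb2), against 28.2% of all genes. Of the 8 estimates 7 were positive, and with offsets for GC content and length those of Runx2, Jmjd1c and Tcf4 turned negative. P0-induced ME had 1 gene called higher (Mecom), against 0.494% of all genes higher, 1.08% lower and 1.57% in either direction, and 5 of the 8 did not overlap, against 24.8%. RLT Vav Txp had Pbx3 called higher and Mef2c and Runx2 called lower, against 2.64% higher, 1.48% lower and 4.12% in either direction of all genes. Its libraries did not overlap those of P28 WT for 2 of the 8 (Pbx3 and Runx2), against 11.5%. Median log2 fold changes over the 8 genes were 0.34, 0.40 and -0.18 in these comparisons, against -0.10, -0.09 and 0.01 over all genes.

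The other comparisons were between ME groups or ages. P0-induced against E10.5-induced ME called none of the 8 genes, and none of them had an unadjusted p under 0.05, where 0.026% of all genes were called higher, 0.0217% lower and 0.0477% in either direction. Its groups did not overlap for 2 of the 8 (Pbx3 and Mecom), against 11.8% of all genes. There DESeq2 also called none, limma voom called Mecom, and a fit of those groups alone called Meis1, Mecom and Runx2. Over all genes these called 92, 2326 and 1147, against 11 in the main edgeR fit. RLT Vav Txp against E10.5-induced ME called Pbx3 higher and Mecom, Mef2c, Runx2, Jmjd1c and Tcf4 lower, against 8.5% of all genes higher, 9.38% lower and 17.9% in either direction. The 5 lower genes did not overlap, against 25.7% of all genes. In wild-type cells P28 against P0 called Meis1, Runx2 and Tcf4 higher, against 3.12% of all genes higher, 4.56% lower and 7.68% in either direction. These 3 did not overlap, as for 9.27% of all genes. In ME cells with induction at E10.5, P28 against P0 called Zeb2 lower, against 8.45% of all genes lower, 9.79% higher and 18.2% in either direction. Zeb2 alone of the 8 did not overlap there, against 25.4% of all genes. The difference of the ME effect at P28 from that at P0 was negative for each of the 8 genes and was called for none of them, against 0.72% of all genes (0.468% higher, 0.252% lower), and 1 of the 8 had an unadjusted p under 0.05. DESeq2 and limma voom also called none for that difference, and limma voom gave Mecom a positive sign.

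Scaling shifted the balance of calls over all genes. Of the genes called in E10.5-induced ME against P28 WT, 63.8% were higher with TMM, 52.3% with RLE factors, 46.6% with offsets for GC content and length and 33.3% with plain library totals. In P0-induced ME against P28 WT 31.5% were higher with TMM, and 13.8%, 17.7% and 14.4% in that order. Plain library totals moved P0 ME against P0 WT from 56.8% to 67.2%, RLT Vav Txp against P28 WT from 64% to 53.3% and the wild-type age comparison from 40.6% to 56.8%. The offsets moved RLT Vav Txp against E10.5-induced ME from 47.5% to 59.0% and the ME age comparison from 53.7% to 38.5%. For the difference of effects the share was 65.1% with TMM, 43.0% with RLE, 48.4% with the offsets and 11.0% with plain totals. The median of all genes in E10.5-induced ME against P28 WT was -0.10 with TMM and -0.23 with plain totals, and in the difference of effects -0.04 and -0.24.

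**Figure D3:**
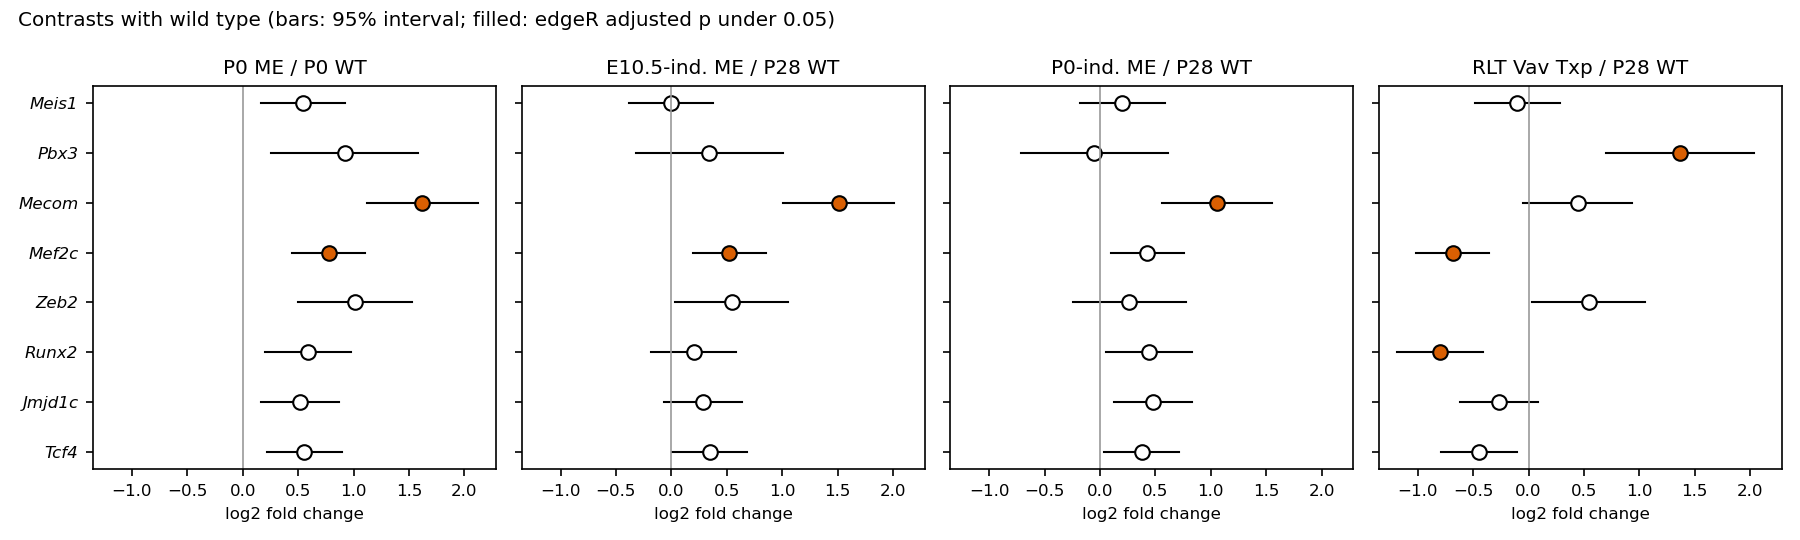
Log2 fold changes of the 8 genes against wild type of the same age, with 95% intervals from the edgeR fit; filled points had an adjusted p under 0.05. Mecom reads 1.62, 1.51, 1.06 and 0.44 from left to right, and the 3 P28 panels share the P28 WT libraries.

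Meis1 and Pbx3, the HOXA9 cofactors, followed different patterns. Meis1 was higher in P28 than in P0 wild-type cells and was not called in any comparison of ME with wild type, while Pbx3 was called only where RLT Vav Txp was compared. Positions given here are of whole genes, all protein-coding, on GRCm38 in the GENCODE M21 annotation. Meis1 (ENSMUSG00000020160, chromosome 11, 18879817 to 19018985, minus strand) read 277, 166, 143 and 156 CPM in libraries 1 to 4 of P0 WT and 394, 239, 244 and 203 in those of P0 ME. At P28 it read 350.2, 299, 334 and 334 CPM in WT, 321, 312, 361 and 319 in E10.5-induced ME, 406, 386, 370.3 and 353 in P0-induced ME and 329, 327, 313 and 259 in RLT Vav Txp. Libraries 2 to 4 of P0 WT were the lowest of all 24, and library 1 of P0 WT lay among the P0 ME values. Those libraries 2 to 4 also had far higher neutrophil and erythroid marker sums than library 1 and P28 WT. The part of this in the age result for Meis1 was not tested. In wild-type cells the log2 fold change of P28 over P0 was 0.83 (SE 0.19, adjusted p of 0.00624 in edgeR), with groups that did not overlap. In a fit of those groups alone the adjusted p was 0.0815. ME against WT gave 0.54 (SE 0.19, adjusted p of 0.175 in edgeR) at P0, and without both libraries numbered 1 it gave 0.56 with an adjusted p of 0.0368. At P28 the values were -0.0049 for E10.5-induced ME (95% interval -0.39 to 0.38) and 0.20 for P0-induced ME (95% interval -0.18 to 0.58). P0-induced ME was the one P28 group whose Meis1 values all lay above those of P28 WT, and it did not pass the test. The ME effect at P28 minus that at P0 was -0.55 (SE 0.26, adjusted p of 0.296 in edgeR), the largest in size among the 8 relative to its error.

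Pbx3 (ENSMUSG00000038718, chromosome 2, 34171457 to 34373142, minus strand) was the least abundant of the 8 per length in 5 of the 6 groups and the one called higher in RLT Vav Txp. It had 9.50, 8.84, 10.45 and 4.46 CPM in the P0 WT libraries and 25.2, 13.5, 16.1 and 8.05 in those of P0 ME, with overlapping groups. At P28 it read 8.70, 8.41, 12.04 and 9.45 CPM in WT, 10.54, 11.7, 15.4 and 11.4 in E10.5-induced ME and 9.67, 10.02, 10.4 and 7.23 in P0-induced ME. RLT Vav Txp had 34.3, 31.95, 13.96 and 19.2 CPM, each above every P28 WT value, with libraries 1 and 2 higher than 3 and 4. Libraries 1 and 2 are those whose label tags begin with the same number. Whether they are independent of each other is not given, and its part in this result was not tested. P0-induced ME values all lay below those of E10.5-induced ME. That difference, -0.39 (SE 0.32, adjusted p of 1 in edgeR), was not called. The log2 fold change of RLT Vav Txp over P28 WT was 1.37 (SE 0.33, adjusted p of 0.0132 in edgeR), and that over E10.5-induced ME 1.02 (SE 0.32, adjusted p of 0.0296 in edgeR), with groups that overlapped. The call against P28 WT was lost when P28 WT library 2 (adjusted p = 0.0512) or RLT Vav Txp library 1 (0.0556) or 2 (0.0520) was left out. That against E10.5-induced ME was lost without library 1, 2 or 4 of that group or library 1 or 2 of RLT Vav Txp, with adjusted p-values of 0.0722 to 0.102. The macrophage marker sums of the RLT Vav Txp libraries 1 to 4 were 3169, 737, 2217 and 1979 CPM, and their part in this result was not tested. In P0 ME over P0 WT Pbx3 gave 0.92 (SE 0.32, adjusted p of 0.181 in edgeR), and in E10.5- and P0-induced ME over P28 WT 0.34 and -0.05.

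Mecom, which codes for EVI1, a factor that blood stem cells need to renew themselves, was the gene of the 8 that was called higher in each of the 3 ME groups without the RLT Vav Txp label, though the call with P0 induction was fragile. Mecom (ENSMUSG00000027684, chromosome 3, 29951296 to 30548008, minus strand) had 114, 84.4, 86.6 and 35.9 CPM in the P0 WT libraries and 361, 191, 244 and 192 in those of P0 ME. P28 levels were 113, 101, 89.7 and 118 CPM in WT, 322, 309, 306 and 262 in E10.5-induced ME and 242, 238, 212 and 185 in P0-induced ME. RLT Vav Txp, also induced at E10.5, had 148, 160.1, 160.2 and 104 CPM, of which library 4 lay inside the P28 WT range and the others above it, all below P0-induced ME. The lowest ME library outside RLT Vav Txp, at 185 CPM, lay above the highest wild-type library, at 118 CPM, over both ages. The P0 log2 fold change was 1.62 (SE 0.24, adjusted p of 0.000993 in edgeR), with a fold of 3.15 between the libraries numbered 1 and 3.03 between the means of libraries 2 to 4. In the fit of the P0 groups alone its adjusted p was 0.388.

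Against P28 WT, the change of Mecom on the log2 scale was 1.51 (SE 0.24, adjusted p of 0.000967 in edgeR) in E10.5-induced ME and 1.06 (SE 0.24, adjusted p of 0.0375 in edgeR) in P0-induced ME. The former was called in each alternative and each fit with 1 library left out, with adjusted p-values of at most 0.00675. The latter lost its call in 7 of the 8 fits with 1 library left out (adjusted p up to 0.158, without P28 WT library 2), keeping it only without P28 WT library 4, and with offsets for GC content and length (0.73, adjusted p = 0.0534). P0-induced ME libraries all lay below those of E10.5-induced ME for Mecom, with a log2 fold change of -0.45 (SE 0.24, adjusted p of 1 in edgeR). RLT Vav Txp over E10.5-induced ME gave -1.06 (SE 0.24, adjusted p of 0.00396 in edgeR), and the call held without any one library. Over P28 WT it gave 0.44 (95% interval -0.05 to 0.93). The difference of the P28 and P0 effects of ME on Mecom was -0.11 (95% interval -0.80 to 0.58). The LSK marker list includes Mecom itself, and its sums did not separate E10.5-induced ME (4564 to 5314 CPM) from P28 WT (4343 to 4935). Of the 9 markers in that list Mecom was called higher, 1 was called lower and 5 had groups that did not overlap. Over all genes these shares were 7.82%, 4.44% and 28.2%. Such sums cannot show whether the cell make-up was the same.

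Mef2c, a MADS-box factor that steers progenitors between lymphoid and myeloid fates, was called higher in ME cells of both ages with induction at E10.5 and called lower in RLT Vav Txp. Mef2c (ENSMUSG00000005583, chromosome 13, 83504034 to 83667080, plus strand) had 341, 284, 356 and 276 CPM in the P0 WT libraries and 645, 494, 452 and 562 in those of P0 ME. At P28 it read 338, 303, 335 and 269.5 CPM in WT, 431, 419, 503 and 438 in E10.5-induced ME and 465, 399, 425 and 385 in P0-induced ME. RLT Vav Txp had 276, 179, 165 and 155 CPM, with libraries 2 to 4 the lowest of all 24 and library 1 inside the P28 WT range. Every wild-type library of either age lay below every ME library outside RLT Vav Txp. The log2 fold changes were 0.77 (SE 0.16, adjusted p of 0.0223 in edgeR) at P0 and 0.52 (SE 0.16, adjusted p of 0.0334 in edgeR) for E10.5-induced ME at P28. P0-induced ME gave 0.43 (SE 0.16, adjusted p of 0.134 in edgeR), with groups that did not overlap. It was called there with voom (adjusted p = 0.00285) and in an edgeR fit of those groups alone (0.0067). Over all genes these settings called 2711 and 2575 higher, against 114 in the main edgeR fit. P0-induced over E10.5-induced ME gave -0.10 for Mef2c (95% interval -0.43 to 0.23) and was not called.

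Both ME calls for Mef2c were near the threshold. The P0 call was lost without P0 WT library 2 or 4 or P0 ME library 1 or 4 (adjusted p of 0.0605 to 0.0729), without both libraries numbered 1 (0.0506), with voom (0.113), with offsets for GC content and length (0.0507) and in the fit of the P0 groups alone (0.591). The E10.5-induced call at P28 was lost whichever of the 8 libraries was left out (adjusted p of 0.0516 to 0.138), with RLE factors (0.068), plain totals (0.139), no filter (0.0997), the stricter filter (0.0523) and with offsets for GC content and length, where the log2 fold change was 0.19 (adjusted p = 0.494). In RLT Vav Txp the log2 fold change was -0.69 (SE 0.16, adjusted p of 0.0118 in edgeR) over P28 WT and -1.21 (SE 0.16, adjusted p of 2.81e-05 in edgeR) over E10.5-induced ME. Without RLT Vav Txp library 3 or 4 the former had an adjusted p of 0.0592 or 0.0588, and the latter stayed called with any one library left out. The LSK marker sums were 4343 to 4935 CPM in P28 WT and 2100 to 3068 in RLT Vav Txp, and their part in this result was not tested. Between wild-type ages Mef2c gave -0.01 (95% interval -0.34 to 0.32).

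Runx2, a RUNX factor best known from bone that binds DNA with CBFB, was higher in P28 marrow than in P0 liver of wild-type mice and lower in RLT Vav Txp than in the other P28 groups it was tested against. Runx2 (ENSMUSG00000039153, chromosome 17, 44495987 to 44814797, minus strand) had 49.1, 35.2, 49.5 and 33.9 CPM in the P0 WT libraries and 75.3, 43.9, 68.3 and 65.03 in those of P0 ME. P28 levels were 72.1, 69.6, 73.7 and 63.7 CPM in WT, 91.3, 78.7, 81.9 and 68.8 in E10.5-induced ME and 97.6, 92.8, 99.1 and 90.3 in P0-induced ME. RLT Vav Txp had 47.3, 35.5, 26.5 and 51.2 CPM, each below every other P28 value. P0-induced ME libraries all lay above those of P28 WT. The log2 fold change of RLT Vav Txp was -0.80 (SE 0.19, adjusted p of 0.0122 in edgeR) over P28 WT and -0.999 (SE 0.19, adjusted p of 0.000975 in edgeR) over E10.5-induced ME. Without RLT Vav Txp library 3, the lowest, the former had an adjusted p of 0.0652. Wild-type P28 over P0 gave 0.74 (SE 0.19, adjusted p of 0.0159 in edgeR), with an adjusted p of 0.0593 or 0.0588 without P0 WT library 2 or 4 and of 0.0845 in a fit of those groups alone. ME over WT gave 0.59 (SE 0.19, adjusted p of 0.145 in edgeR) at P0, 0.20 (SE 0.19, adjusted p of 0.533 in edgeR) with E10.5 induction and 0.44 (SE 0.19, adjusted p of 0.18 in edgeR) with P0 induction at P28. The E10.5-induced estimate changed sign, to -0.27, with offsets for GC content and length.

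Zeb2 and Tcf4 code for factors that bind E-box sequences, ZEB2 mainly as a repressor and TCF4 as an E protein that drives plasmacytoid dendritic cells. Zeb2 (ENSMUSG00000026872, chromosome 2, 44983632 to 45117395, minus strand) had 92.9, 62.1, 31.4 and 40.5 CPM in the P0 WT libraries and 150.1, 105, 103 and 100 in those of P0 ME. The P0 ME libraries were all above those of P0 WT and above every other library of the study. At P28 it read 46.9, 45.2, 42.99 and 50.1 CPM in WT, 54.1, 59.7, 89.4 and 66.6 in E10.5-induced ME, 68.9, 50.4, 56.3 and 47.03 in P0-induced ME and 86.6, 45.7, 72.5 and 64.6 in RLT Vav Txp. The P0 log2 fold change was 1.01 (SE 0.25, adjusted p of 0.0575 in edgeR) and missed the threshold, and without P0 WT library 1 it was 1.31 with an adjusted p of 0.00489. Without both P0 libraries numbered 1 its adjusted p was 0.0131, and with DESeq2 0.00764. In ME cells Zeb2 was lower at P28 than at P0, with -0.76 (SE 0.25, adjusted p of 0.0346 in edgeR) and groups that did not overlap. That call was lost without P0 ME library 1 or 2 or E10.5-induced library 1, 2 or 4 at P28 (adjusted p of 0.0559 to 0.164) and without both P0 libraries numbered 1 (0.0507). E10.5-induced ME over P28 WT gave 0.54 (SE 0.25, adjusted p of 0.16 in edgeR).

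Tcf4 (ENSMUSG00000053477, chromosome 18, 69343356 to 69689079, plus strand) was higher in P28 marrow than in P0 liver of wild-type mice and lower in RLT Vav Txp than in E10.5-induced ME. The P0 WT libraries had 97.1, 86.04, 95.9 and 108 CPM, those of P0 ME 179.6, 119, 127 and 144 and those of P28 WT 166, 134, 148 and 126. E10.5-induced ME had 168, 164, 217 and 181 CPM, P0-induced ME 204, 164, 197 and 179 and RLT Vav Txp 147, 96.3, 82.9 and 95.5. Values of P0 WT lay below all of those of P0 ME and of P28 WT. The log2 fold change was 0.57 (SE 0.17, adjusted p of 0.0339 in edgeR) for wild-type P28 over P0 and -0.79 (SE 0.17, adjusted p of 0.00235 in edgeR) for RLT Vav Txp over E10.5-induced ME. The former was lost without P0 WT library 2 or 3 or P28 WT library 1 or 3 (adjusted p of 0.0553 to 0.110), in a fit of those groups alone (0.110), with voom (0.0528), with no filter on low counts (0.0737) and with the GC and length offsets (0.0668). The latter was lost with the GC and length offsets (adjusted p = 0.0893). ME over WT gave 0.56 (SE 0.17, adjusted p of 0.123 in edgeR) at P0 (0.0322 with DESeq2), 0.35 (SE 0.17, adjusted p of 0.179 in edgeR) with E10.5 induction and 0.38 (SE 0.17, adjusted p of 0.198 in edgeR) with P0 induction. Sums of 8 plasmacytoid dendritic cell markers were 158 to 276 CPM in RLT Vav Txp and 116 to 137 in P28 WT. Estimates were positive for 4 of these 8 markers. Of the 8, 2 were called higher and none lower, against 2.64% and 1.48% of all genes. Tcf4 gave -0.45 in RLT Vav Txp over P28 WT (95% interval -0.79 to -0.11, adjusted p of 0.153 in edgeR) and was not called. It was called lower there with voom (-0.56, adjusted p = 0.0362) and without RLT Vav Txp library 1 (-0.65, adjusted p of 0.0159 in edgeR).

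Jmjd1c (ENSMUSG00000037876, chromosome 10, 67096125 to 67256326, plus strand) varied least with Tcf4, with a ratio of 2.01 between its highest and lowest group mean and 1.92 for Tcf4, against 3.73 for Mecom. It had 88.8, 71.5, 62.3 and 95.9 CPM in the P0 WT libraries and 137, 114, 97.5 and 107 in those of P0 ME, which did not overlap. At P28 it read 76.1, 72.7, 71.8 and 51.97 CPM in WT, 73.5, 77.5, 99.3 and 81.8 in E10.5-induced ME, 104, 87.4, 98.8 and 89.4 in P0-induced ME and 64.6, 54.8, 41.6 and 65.4 in RLT Vav Txp. P0-induced ME lay wholly above P28 WT, and RLT Vav Txp wholly below E10.5-induced ME. The estimates were 0.51 (SE 0.17, adjusted p of 0.166 in edgeR) for P0 ME over P0 WT and 0.48 (SE 0.17, adjusted p of 0.119 in edgeR) for P0-induced ME over P28 WT. Jmjd1c was called in RLT Vav Txp over E10.5-induced ME, at -0.55 (SE 0.17, adjusted p of 0.0268 in edgeR). That call was lost without E10.5-induced library 3 or RLT Vav Txp library 2 or 3 (adjusted p of 0.0666 to 0.117), with no filter on low counts (0.0869) and with offsets for GC content and length (0.344). In ME cells P28 over P0 gave -0.45 (SE 0.17, adjusted p of 0.0646 in edgeR), and it was called lower there under 7 alternatives, among them DESeq2 (0.0187), RLE factors (0.0365) and the offsets (0.0164).

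Genes antisense to Meis1 (Gm16140), Mecom (Mecomos), Zeb2 (Zeb2os) and Runx2 (Runx2os1) share exon positions with them. The strand setting of the counting is not given in the sources used here, so reads of such pairs may not be separated. Their group means were at most 1.93 CPM for Gm16140, 0.913 for Mecomos, 0.797 for Zeb2os and 1.65 for Runx2os1.

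Family members of the 8 genes were called in E10.5- and P0-induced ME at P28, and none in P0 ME or in RLT Vav Txp, each against wild type of the same age. Of 18 tested paralogs none was called in P0 ME against P0 WT, and their median log2 fold change was -0.01, against 0.68 for the 8 genes. In E10.5-induced ME against P28 WT 5 were called higher and 1 lower, against 7.82% and 4.44% of all genes. The higher ones named here are Pknox1, a TALE relative of Meis1, at 1.15 (SE 0.34, adjusted p of 0.0258 in edgeR), Tcf3, an E protein like Tcf4, at 0.98 (SE 0.22, adjusted p of 0.00722 in edgeR), and Kdm3a and Kdm3b, demethylase relatives of Jmjd1c, at 0.84 (SE 0.24, adjusted p of 0.0213 in edgeR) and 0.76 (SE 0.19, adjusted p of 0.012 in edgeR). Kdm3a and Kdm3b were also called higher in P0-induced ME, at 0.94 (SE 0.24, adjusted p of 0.0468 in edgeR) and 0.75 (SE 0.19, adjusted p of 0.0484 in edgeR). With plain library totals or the offsets 1 paralog was called higher in E10.5-induced ME and none in P0-induced ME. With voom 8 and 7 were called higher, and over all genes 3737 and 2711, against 1804 and 114 in the main edgeR fit. No called paralog changed sign under RLE factors, plain totals or the offsets. RLT Vav Txp against P28 WT called none of the 18, and 2 had an unadjusted p under 0.05. Against E10.5-induced ME it called 2 higher and 7 lower, the latter led by Pknox1 at -1.10, Kdm3b at -0.997, Tcf3 at -0.90 and Pbx2 at -0.70. The shares of all genes there were 8.5% higher and 9.38% lower. With the offsets for GC content and length 1 paralog was called lower in that comparison.

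HOXA genes led the other known MLL-fusion targets that were called higher in ME cells with E10.5 induction. Of 19 tested, 5 were called higher and none lower in P0 ME against P0 WT, with a median of 0.48. Over all genes 0.364% were called higher and 0.278% lower. Among these were Hoxa5 at 2.19 (SE 0.32, adjusted p of 0.000855 in edgeR), Hoxa10 at 1.54 (SE 0.22, adjusted p of 0.000474 in edgeR), Hoxa9 at 1.03 (SE 0.17, adjusted p of 0.0026 in edgeR) and Hoxa7 at 0.88 (SE 0.21, adjusted p of 0.0497 in edgeR). Without both P0 libraries numbered 1, 4 of the 19 were called, with voom 3, and in a fit of the P0 groups alone none. E10.5-induced ME against P28 WT also had 5 called higher and none lower (median 0.51), led by Hoxa5 at 1.41 (SE 0.32, adjusted p of 0.00642 in edgeR), Arid1b at 0.79 (SE 0.20, adjusted p of 0.0128 in edgeR), Hoxa10 at 0.77 (SE 0.21, adjusted p of 0.02 in edgeR) and Mbnl1 at 0.55 (SE 0.14, adjusted p of 0.0122 in edgeR). Over all genes 7.82% were called higher and 4.44% lower in that comparison. There 1 of the 19 was called with plain library totals and 9 with voom. Those settings called 750 and 3737 genes higher in all, against 1804 in the main edgeR fit. In P0-induced ME none of the 19 was called with edgeR (8 had an unadjusted p under 0.05), against 1.57% of all genes. There DESeq2 called 3 higher, voom 10 and a fit of the groups compared alone 10. Over all genes these called 598, 2711 and 2575 higher, against 114 in the main edgeR fit. RLT Vav Txp against P28 WT called 3 lower, namely the receptor gene Flt3 at -2.40 (SE 0.33, adjusted p of 7.23e-05 in edgeR), Hoxa7 at -0.91 (SE 0.21, adjusted p of 0.0111 in edgeR) and Hoxa9 at -0.70 (SE 0.17, adjusted p of 0.016 in edgeR). Over all genes 1.48% were called lower and 2.64% higher there.

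**Figure D4:**
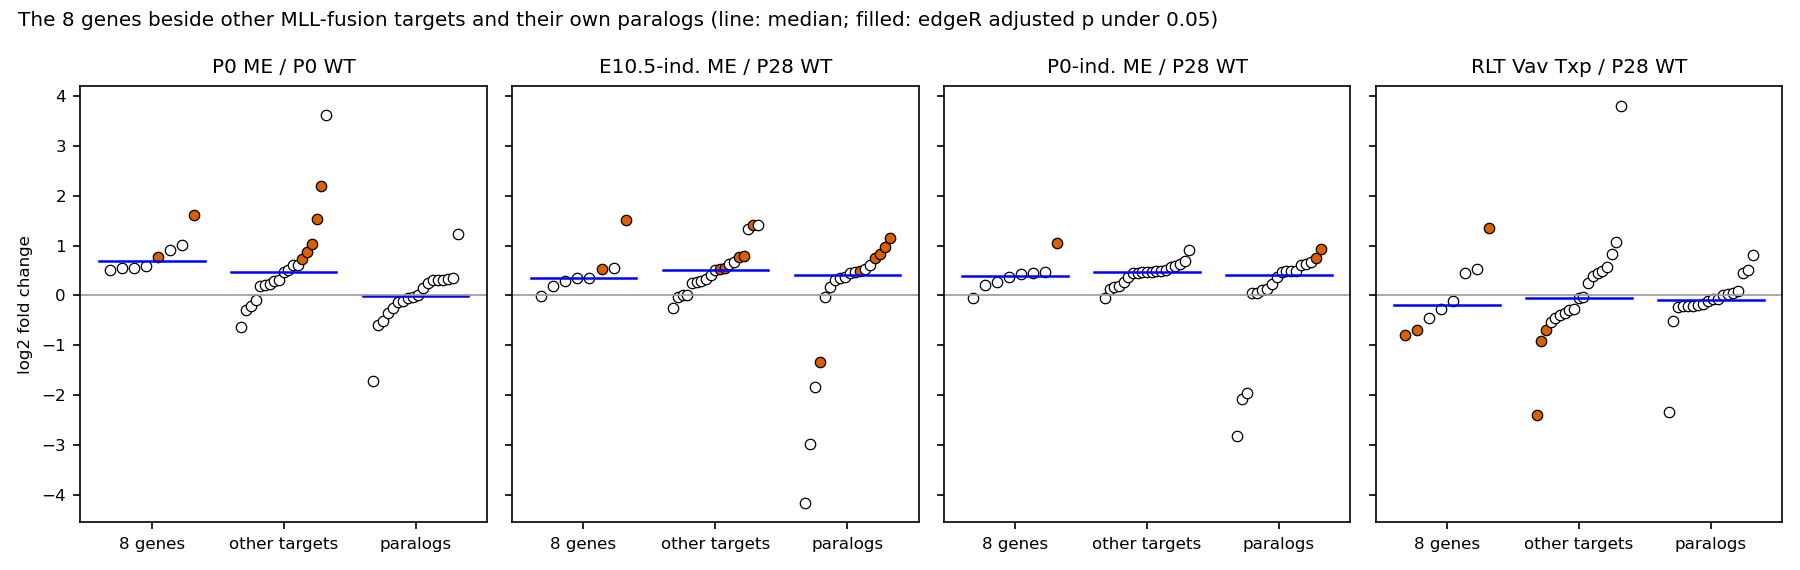
Log2 fold changes of the 8 genes, 19 other MLL-fusion targets and 18 paralogs in the 4 comparisons with wild type of the same age (points; line: median of the list; filled: edgeR adjusted p under 0.05). In the P0 panel the medians are 0.68, 0.48 and -0.01 from left to right, and the 3 P28 panels share the P28 WT libraries.

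Partners and direct regulators of the 8 proteins formed a list of 17. In E10.5-induced ME against P28 WT 4 were called higher, namely Men1 (menin) at 0.75 (SE 0.16, adjusted p of 0.00543 in edgeR), Hoxa9 at 0.53, Ctbp1, a corepressor used by EVI1 and ZEB proteins, at 0.51 (SE 0.15, adjusted p of 0.0247 in edgeR), and Psip1 (LEDGF) at 0.46 (SE 0.14, adjusted p of 0.0339 in edgeR). The share of all genes called higher there was 7.82%. With RLE factors or plain library totals 1 of these 4 was still called, and with the offsets none of them. Voom called 10 of the 17 higher, and 3737 genes higher in all, against 1804 in the main edgeR fit. P0 ME called only Hoxa9, against 0.364% of all genes called higher and 0.278% lower. P0-induced ME called none with edgeR, where 8 had an unadjusted p under 0.05. There DESeq2 called 1 lower, and voom 7 higher and 1 lower. Over all genes DESeq2 called 1872 and voom 4998, against 362 (1.57%) in the main edgeR fit. In RLT Vav Txp against P28 WT Id2, an inhibitor of E proteins such as TCF4, rose by 1.67 (SE 0.37, adjusted p of 0.00777 in edgeR) and Hdac9, a deacetylase that binds MEF2 proteins, by 1.39 (SE 0.35, adjusted p of 0.018 in edgeR), while Hoxa9 was lower. Of all genes 2.64% were called higher and 1.48% lower there. Cbfb, the RUNX partner, was among 7 genes called lower in RLT Vav Txp against E10.5-induced ME, at -0.83 (SE 0.23, adjusted p of 0.0132 in edgeR). A further 3 of the list were called higher there, against 9.38% of all genes lower and 8.5% higher. Psip1 was the one gene of the list called for the difference of the ME effects at P28 and P0, at 0.88 (SE 0.20, adjusted p of 0.0407 in edgeR), and it was not called with RLE factors. Over all genes 0.72% were called for that difference.

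Kmt2a, the mouse gene for MLL, averaged 27.3 ± 8.64 CPM over P0 WT libraries, 91.5 ± 10.9 over those of P0 ME, 56.4 ± 2.12 in E10.5-induced ME and 97.9 ± 6.47 in P0-induced ME at P28 (SD, n = 4). It read 41.6 ± 4.51 CPM in P28 WT and 45.5 ± 5.87 in RLT Vav Txp. Mllt1, the mouse gene for ENL, ran from 60.1 ± 12.8 CPM (P0 ME) to 136 ± 8.80 (E10.5-induced ME). Whether reads of the human ME transgene were counted under Kmt2a or Mllt1 was not tested. The order of Kmt2a across ME groups was not that of Mecom, which was highest in E10.5-induced ME at P28. A relation between the levels of Kmt2a and Mecom was not tested.

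For each of the 8 genes the 2 genes with the most similar profile were found among 9690 genes, by the root mean square difference of centred log2 CPM over the 24 libraries. This describes the libraries and their cell make-up and carries no test. Tcf4 had the closest ones, Irf2 at 0.131 and Nfkb1 at 0.193, where its own profile had a root mean square of 0.41. Meis1 was closest to Inpp5k (0.189) and Oma1 (0.202), Mef2c to Foxp1 (0.221) and Cstf2t (0.256), and Jmjd1c to Peli1 (0.217) and Csnk1g3 (0.221). Runx2 was closest to Sox4 (0.238) and Tapt1 (0.257), and the third for Runx2 was Tcf4 (0.259). Mecom was closest to Erbin (0.326) and Ecpas (0.327) and Zeb2 to Trp53inp1 (0.291) and Nsun3 (0.333). Pbx3 had no gene nearer than Prkar2b (0.413) and Habp4 (0.425).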

How the data were processed

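The authors deposited 1 table of raw counts, with Ensembl genes against 24 libraries. The submitters' processing notes name STAR 2.7.9a, Subread, featureCounts 2.0.3 and GRCm38; the annotation, strand setting and handling of reads with several matches are not given in the sources used here. The table had 55774 entries for 55487 IDs, and 287 repeats of 168 IDs, with identical counts, were dropped. GENCODE M21 gave coordinates and lengths.

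Genes were kept by filterByExpr with a minimum count of 10 (23059 genes), given TMM factors and tested in the edgeR 4.0.16 robust quasi-likelihood model on all 24 libraries, 1 mean per group (18 residual degrees of freedom). Adjustment was by Benjamini-Hochberg over all genes. Simulated data were used to test the procedure. Precision came from 31233688 to 89774511 counts per library and from 4 libraries per group; p-values measure only the spread between these libraries, and PCR copies are not independent molecules.

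The 8 genes and the lists were chosen with earlier results of these data known. Beside the 8 genes, at most 4 called genes per list and direction in a comparison were named, by largest change, together with the 2 nearest profiles of each gene (mean log2 CPM of at least 3) and Kmt2a. Of the list genes 1 (a hepatocyte marker) is not in the table. Alternatives were RLE factors, plain totals, DESeq2 1.42.0, limma 3.58.1 voom with quality weights (a weight for each library, called voom here) and other filters. Further ones were only the groups compared, offsets for GC content and length, a block for the replicate number and fits without 1 library at a time. Those on the P0 libraries numbered 1 were chosen after seeing the data. The software ran under R 4.3.3 and Python 3.11.15. The human transgene was not analysed here, and the values of 1 paralog are not reported here.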

Additional observations from a re-analysis of the deposited data

Results flagged for a closer look

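In P0 WT, Meis1 read 277 CPM in library 1, far from 143 to 166 CPM in the other 3. In P0 ME, Zeb2 read 150.1 CPM in library 1, far from 100 to 105 CPM in the other 3. Gaps of this kind were looked for in 48 sets of 4 libraries (8 genes in 6 groups) and found in these 2, where chance gives about 1 in 20. Both are the P0 libraries with low neutrophil and erythroid marker sums.

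The response of Mef2c differed between groups induced at E10.5. Against the shared P28 WT libraries it was 0.52 in E10.5-induced ME and -0.69 in RLT Vav Txp on the log2 scale, and the test of the difference gave -1.21 (SE 0.16, adjusted p of 2.81e-05 in edgeR). Each of the 4 RLT Vav Txp libraries lay below each E10.5-induced library.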

How the results depend on the processing

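Of 752 values of the 8 genes under other settings, 669 kept direction and call, 22 lost and 34 gained a call and 27, none of them called, changed sign; of 640 with 1 library left out these numbers were 569, 44, 5 and 22. The number of the 8 genes called was 2 in P0 ME against P0 WT, 4 with DESeq2, 1 with voom, 0 with only the groups compared, 4 with a term for the libraries numbered 1 (Meis1, Mecom, Mef2c and Zeb2) and 1 to 4 with 1 library left out. In E10.5-induced ME against P28 WT it was 2, and 1 with RLE, plain totals, no filter, at least 10 counts in 12 libraries or the offsets for GC content and length, and with any library left out (1 to 1), while voom (adding Tcf4) and only the groups compared (adding Zeb2) each gave 3. In P0-induced ME it was 1, 5 with voom, 5 with only the groups compared, 0 with the offsets and 0 to 1 with 1 library left out. Over all genes voom called 4998 there and only the groups compared 5196, against 362. In RLT Vav Txp against P28 WT the number of the 8 genes called was 3, 4 with voom (adding Tcf4) and 1 to 3 with 1 library left out. Against E10.5-induced ME it was 6, and 4 to 6 with 1 library left out. P0-induced against E10.5-induced ME gave 0, 1 with voom and 3 with only the groups compared. The wild-type age comparison gave 3, 0 with only the groups compared and 1 to 3 with 1 library left out. The ME age comparison gave 1, 2 (Zeb2 and Jmjd1c) with RLE, plain totals, DESeq2, voom, the stricter filter, only the groups compared or the offsets, 2 (Meis1 and Tcf4) without both P0 libraries numbered 1, and 0 to 2 with 1 library left out. The cause of these changes was not tested. Fits of only the groups compared had fewer libraries, and their calls over all genes moved both ways. They fell from 148 to 5 for P0 ME and rose from 362 to 5196 for P0-induced ME, each against same-age wild type. For Mecom the SD was 40.6% of the mean in P0 WT and 32.3% in P0 ME. At P28 it was 11.9% in WT, 8.66% with E10.5 induction and 12.0% with P0 induction. The fit on all 24 libraries gave Mecom an SE of 0.24 against wild type at either age. The part of this spread in the calls was not tested.

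Uncalled estimates that changed sign were as follows. With the offsets, E10.5-induced ME against P28 WT gave -0.27 for Runx2, -0.0555 for Jmjd1c and -0.0651 for Tcf4, P0-induced ME gave -0.13 for Meis1 and -0.0619 for Zeb2, RLT Vav Txp against E10.5-induced ME gave 0.27 for Meis1 and 0.33 for Zeb2, and the ME age comparison gave -0.0019 for Mecom, -0.16 for Runx2 and -0.0124 for Tcf4. Zeb2 in RLT Vav Txp against E10.5-induced ME gave 0.0552 with RLE and with DESeq2, 0.0151 with plain totals, 0.0351 with no filter, 0.0725 with the stricter filter and 0.0656 with only the groups compared. Mef2c between wild-type ages gave 0.013 with RLE and with DESeq2, 0.13 with plain totals, 6e-04 with voom, 0.0024 with the stricter filter, 0.003 with only the groups compared, 0.026 without both P0 libraries numbered 1 and 0.0526 with a term for them. Zeb2 gave 0.0497 there without both P0 libraries numbered 1, Mef2c 0.0185 in P0-induced against E10.5-induced ME with plain totals, and Mecom 0.0302 for the difference of effects with voom. With 1 library left out, ranges across 0 were -0.10 to 0.0365 for Meis1 in E10.5-induced ME, -0.13 to 0.0808 for Pbx3 in P0-induced ME, -0.0173 to 0.13 for Tcf4 between these groups, -0.14 to 0.0074 for Meis1 and -0.15 to 0.16 for Zeb2 in RLT Vav Txp against E10.5-induced ME, -0.0044 to 0.37 for Pbx3, -0.0891 to 0.0721 for Mef2c and -0.47 to 0.0545 for Zeb2 between wild-type ages, and -0.33 to 0.16 for Mecom in the difference of effects.

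Counts over all genes moved more. P0 ME against P0 WT called 148 genes, from 5 (only the groups compared) to 802 (DESeq2), E10.5-induced ME 2827, from 1746 (offsets) to 6492 (voom), P0-induced ME 362, from 206 (no filter) to 5196 (only the groups compared), and RLT Vav Txp against P28 WT 950, up to 1644 (DESeq2). P0-induced against E10.5-induced ME called 11, up to 2326 (voom), RLT Vav Txp against E10.5-induced ME 4122, up to 8053 (voom), the wild-type age comparison 1771, from 481 (only the groups compared) to 2994 (term), and the difference of effects 166, from 41 to 782 (DESeq2).

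In the fit with a replicate block, on the 20 numbered libraries, 3 of the 8 genes were called in P0 ME against P0 WT (Mecom, Mef2c and Zeb2, the last with an adjusted p of 0.0432); the block changed no other count of these genes. Same-numbered P0 libraries had correlations of 0.66, 0.053, 0.371 and 0.464, and 3 of 4 correlated best with their own number. This is a hint of shared variation at P0, but since not every pair was above 0.1 and the labels tie the numbers to nothing shared, the samples were not treated as paired. No paired analysis was possible for RLT Vav Txp because its labels carry tags in place of the replicate numbers of the other groups.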

Other observations

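The inhibitors of E proteins Id1, Id2 and Id3, which bind and block TCF4, TCF3 and TCF12, were far lower at P28 than at P0. In wild-type cells the log2 fold changes of P28 over P0 were -3.25 (SE 0.57, adjusted p of 0.000758 in edgeR) for Id1, -3.25 (SE 0.39, adjusted p of 1.29e-05 in edgeR) for Id2 and -4.29 (SE 0.55, adjusted p of 2.34e-05 in edgeR) for Id3. In ME cells induced at E10.5 they were -3.02, -2.99 and -3.77. Over the same ages Tcf4 gave 0.57 in wild-type cells, and 0.36 in ME cells (adjusted p of 0.134 in edgeR), or 0.49 without both P0 libraries numbered 1 (adjusted p of 0.0413). Among other MLL-fusion targets, the LIM-domain gene Lmo2 was higher at P28 in both, by 1.15 (SE 0.16, adjusted p of 4.55e-05 in edgeR) in wild-type and 0.85 (SE 0.15, adjusted p of 0.000512 in edgeR) in ME cells, and Eya1 was higher by 1.14 (SE 0.23, adjusted p of 0.00231 in edgeR) in wild-type cells. The P0 libraries 2 to 4 had higher neutrophil, erythroid and macrophage marker sums than those of P28 WT, and the part of these cells in the age comparisons was not tested. Without both P0 libraries numbered 1 the same number of partner genes was called in wild-type cells, 1 higher and 3 lower. The shares of all genes in the main edgeR fit were 3.12% higher and 4.56% lower.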
